A study of Mus musculus with 2 samples.

Results

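The AP-1 transcription factors were 9 genes of the 17408 in the expression table, taken by name: Jun, Junb, Jund, Fos, Fosb, Fosl1, Fosl2, Atf3 and Batf3. They were followed across cell states in single cells at day 16 of reprogramming towards induced pluripotent stem cells (iPSCs). Mouse embryonic fibroblasts (MEFs) carrying the doxycycline-inducible STEMCCA cassette of Pou5f1, Sox2, Klf4 and Myc were grown in mouse embryonic stem cell medium with FBS, LIF and ascorbic acid, and unsorted cells were detached with trypsin at 37C and profiled by droplet 3' RNA-seq. There were 2 libraries of 1 group, called replicate 1 (3109 cells) and replicate 2 (3914 cells), both at the same time point and with no untreated fibroblasts among them. The study used different STEMCCA systems, but the labels name none for either library, so system and library cannot be told apart. No library is a sorted population, and nothing in the labels says that the libraries came from separate animals. The p-values below therefore rest on these 2 samples only, with a term for the library and a spread shared among genes.

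AP-1 is a dimer of basic leucine zipper (bZIP) proteins, in which a Jun protein pairs with itself, with a Fos protein or with a member of the ATF or BATF families, and binds a short palindromic DNA motif. Fos, Fosb, Jun, Junb and Atf3 are immediate early genes, transcribed within minutes of a mitogen or stress signal that arrives through the MAP kinases, while Jund is known for a steadier expression. In fibroblasts AP-1 occupies many enhancers that are closed on the way to pluripotency, and its factors are known as barriers to reprogramming.

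The promoters of the members that the comparison below found lower in pluripotent-like cells are shown where the RefSeq table (GRCm38.p6) held one outside annotated exons, as the 150 bases before the listed start, 5′ to 3′ on the strand of the gene. Capitals mark matches, on either strand, to TGACG (part of the cyclic AMP response element TGACGTCA), to TGACATCA (a variant of that element in the Jun promoter), to CCAAT and to TATAAA.
Fos (chr12:85473740-85473889, plus strand): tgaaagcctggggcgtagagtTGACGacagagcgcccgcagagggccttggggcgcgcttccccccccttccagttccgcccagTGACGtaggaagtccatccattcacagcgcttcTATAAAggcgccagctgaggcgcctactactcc
Junb (chr8:84978749-84978898, minus strand): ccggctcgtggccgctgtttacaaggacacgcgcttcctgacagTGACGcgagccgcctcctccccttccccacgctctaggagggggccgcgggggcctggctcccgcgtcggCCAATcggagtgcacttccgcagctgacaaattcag
Jun (chr4:95052223-95052372, minus strand): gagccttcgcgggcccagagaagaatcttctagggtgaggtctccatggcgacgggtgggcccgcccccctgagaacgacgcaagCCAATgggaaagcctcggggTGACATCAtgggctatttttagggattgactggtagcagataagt
Fos held TGACG from 129 and from 66 bases before its start and TATAAA from 33 bases before it. Junb held TGACG from 106 and CCAAT from 36 bases before its start, and Jun held CCAAT from 65 and TGACATCA from 45 bases before its start. Over the same window in 32851 RefSeq promoters, 13.3% held TGACG, 2.32% TGACATCA, 24.5% CCAAT and 7.57% TATAAA. None of the 3 windows held the full TGACGTCA (1.36% of promoters), the AP-1 motif TGAGTCA (2.84%) or the CArG box of serum response factor (0.916%). Sequence further upstream than 150 bases was not searched, so these genes may hold such motifs there. Matches of letters are a description and are not binding sites. In the annotation (GENCODE M21, GRCm38) Jun (chr4:95049034-95052222, minus strand), Junb (chr8:84974484-84978718, minus strand) and Jund (chr8:70698949-70700616, plus strand) each had 1 exon in their principal transcript, and Fos (chr12:85473890-85477273, plus strand) had 4.

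The libraries held 54145377 and 64654306 UMIs (unique molecular identifiers, 1 for each captured RNA molecule), with medians of 15625 and 14292 UMIs per cell, and shared 12 cell barcodes. Cells were clustered on other genes, with the 9 members and all listed genes left out. Of 14 clusters, 1 was pluripotent-like, with 146 cells in replicate 1 and 391 in replicate 2, and all 10 pluripotency markers were at least 2-fold above the other cells. These markers were not left out of the clustering, so their rise names the cluster but is no independent check of it. The other cells numbered 2963 and 3523. Among these, 9 states had at least 30 cells in both libraries. States 2 (led by Nusap1, Mki67 and 2810417H13Rik) and 4 (2810417H13Rik, Tk1 and Mki67) were mitosis-like, state 6 (Mylk, Prss23 and Igfbp7) was smooth muscle-like and state 8 (Spp1, Mmp3 and Mmp13) was fibroblast-like. The mitosis-like states also had S phase markers raised, 5 of 8 in state 2 and 7 of 8 in state 4. State 6 also had 9 of 11 fibroblast markers raised, as did state 8. States 0 (Cib2, Acsbg1 and Dmrtc2), 1 (Pcp4, Nxpe2 and 2610528A11Rik), 3 (Rarres2, Sostdc1 and Cyp11a1), 5 (Perp, Krt19 and Isg15) and 9 (Mmp11, Dcn and Gpx3) reached no marker list and keep their numbers. A level below is the mean over the cells of a group of UMIs per 10000 UMIs of the cell.

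The first comparison asked how the members differed between pluripotent-like cells and all other cells of the same library. Jun, Junb, Fos and Fosl2 were lower in the pluripotent-like cells, by 3.17-fold to 4.82-fold after 0.1 was added to each level, and Jund was close in both groups. In UMIs per total, with nothing added, Fosl2 fell furthest (12.1-fold and 10.3-fold in replicates 1 and 2), and Jun was 4.69-fold and 4.53-fold lower, Junb 4.95-fold and 6.17-fold and Fos 5.21-fold and 4.50-fold. Of the 9 members 5 passed the filter on low values (a mean of at least 0.1), and 4 of these passed the test, all lower. This has to be read against all genes, of which 77.3% of 7007 passed the same test (75% of those with no part in the clustering) and 39.3% were lower, so the count of calls alone sets the members apart from nothing. The size of the change was less common: 8.35% of all genes were called and lower by 1.5 or more on the log2 scale, as these 4 members were. The median log2 fold was -1.71 over the 5 tested members and -0.01 over all genes tested. The median of the members depends on the filter, which Fosl2 passed only through its level in the other cells. With the filter left out, the 4 members below it had smaller folds, -0.90 for Fosb, -0.38 for Fosl1, -0.006 for Atf3 and 0.003 for Batf3. Every level is relative to the total of its cell, so less RNA of a gene and more RNA of all other genes cannot be told apart.

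Among the Jun proteins, the core partners of every AP-1 dimer, Junb had a level of 0.250 and 0.240 in the pluripotent-like cells of replicates 1 and 2 and of 1.47 and 1.66 in the other cells. The groups did not overlap in Junb, whose log2 fold was -2.27 ± 0.10 (SE; limma, adjusted p = 2.66e-08), and 2.67% of all genes tested fell as far. Jun, which encodes c-Jun, stood at 0.132 and 0.162 in the pluripotent-like cells against 0.658 and 0.762 in the others. Its log2 fold was -1.71 ± 0.09 (SE; limma, adjusted p = 9.76e-08), with nearly the same value in each library (-1.71 and -1.72). Jund, by contrast, had 1.99 and 2.34 in the pluripotent-like cells and 1.87 and 2.02 in the others. Jund was thus a little higher in the pluripotent-like cells of both libraries, but the log2 fold of 0.15 ± 0.09 (SE) did not pass (limma, adjusted p = 0.169), with a 95% interval from -0.06 to 0.35. It did pass, upwards, with a pseudocount of 1 (limma, adjusted p = 0.0488) and when the other cells were restricted to the mitosis-like states (0.28, limma, adjusted p = 0.0171).

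Among the Fos proteins, which need a Jun partner to bind DNA, Fos had a level of 0.206 and 0.411 in the pluripotent-like cells and of 1.14 and 2.17 in the other cells. Both groups were higher in replicate 2, and within each library the fall was alike, at -2.01 and -2.15 on the log2 scale. The fitted log2 fold of Fos was -2.08 ± 0.09 (SE; limma, adjusted p = 3.58e-08). Fosl2, which encodes Fra-2, had 0.0218 and 0.0231 in the pluripotent-like cells, from 10 and 27 UMIs, and 0.304 and 0.273 in the others. Its log2 fold of -1.66 ± 0.09 (SE; limma, adjusted p = 1.41e-07) includes the pseudocount of 0.1, which is larger than its pluripotent-like level. From the UMIs alone, Fosl2 was 12.1-fold (95% counting interval 6.55 to 25.2) and 10.3-fold (7.04 to 15.7) lower in the pluripotent-like cells of replicates 1 and 2.

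The 4 rarer members did not reach the filter and were tested only with the filter left out, where 45.6% of 17408 genes passed. There Fosb (log2 fold -0.90, limma, adjusted p = 0.0444) and Fosl1 (-0.38, limma, adjusted p = 0.0132) passed beside Jun, Junb, Fos and Fosl2, and Atf3 and Batf3 did not (limma, adjusted p = 0.945 and 0.964). Fosb, a close relative of Fos, had 4 and 14 UMIs in the pluripotent-like cells and 298 and 730 in the others, which made it 6.31-fold (95% counting interval 2.44 to 23.3) and 9.95-fold (5.89 to 18.3) lower per UMI. Fosl1, which encodes Fra-1, had 1 and 2 UMIs in the pluripotent-like cells against 179 and 196, a ratio of 15.2 (2.69 to 602) and 18.7 (5.11 to 155). Both lay on the same side as Fos and Fosl2 in both libraries. Atf3, a stress-induced repressor, stood at 0.0203 and 0.0247 in the pluripotent-like cells and at 0.0252 and 0.0209 in the others, with opposite signs in the 2 libraries. Batf3, known from dendritic cells, had 0.0121 and 0.00415 against 0.0119 and 0.00401, and so differed more between libraries than between groups. These intervals cover counting error only.

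**Figure D1:**
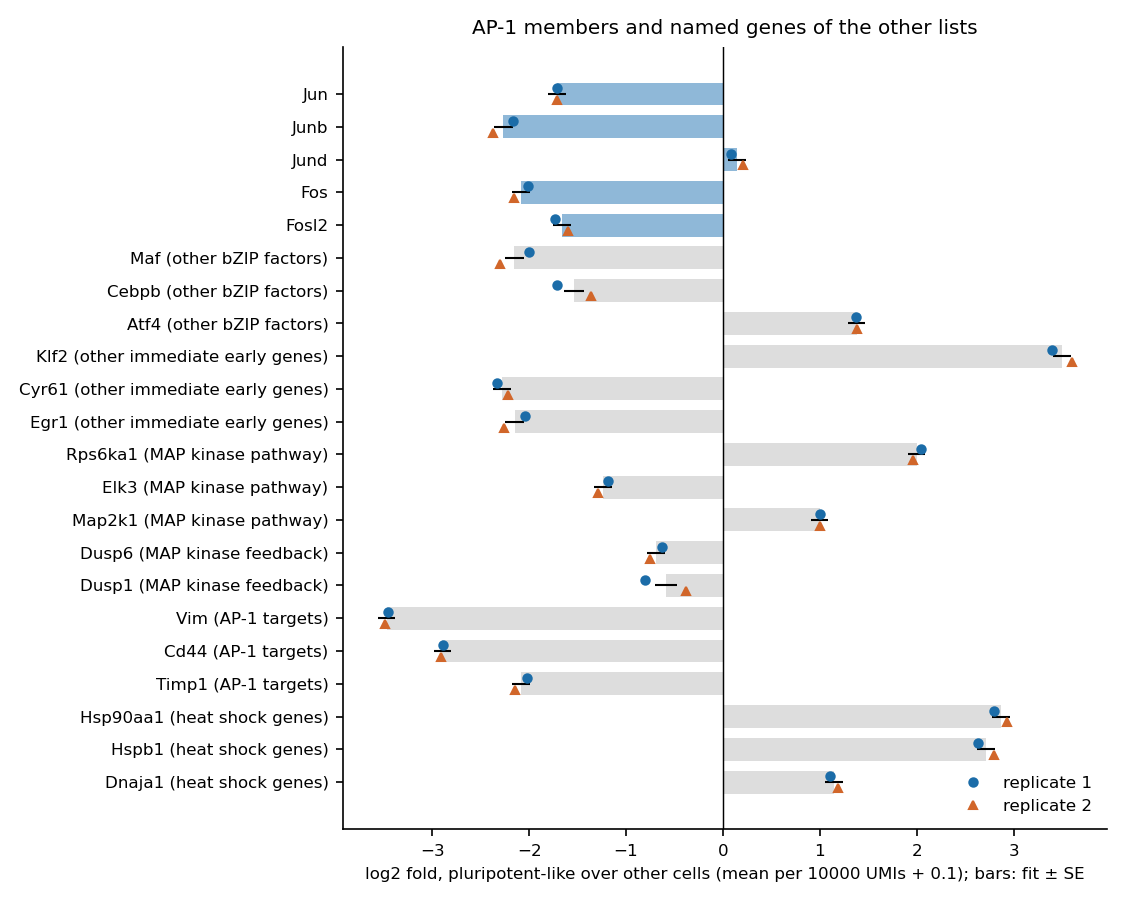
Log2 fold between pluripotent-like and other cells for the 5 tested AP-1 members (blue bars) and for the named genes of 6 other lists (grey bars), with bars at the fitted value, black lines for ± SE and points for replicates 1 and 2. Jun, Junb, Fos and Fosl2 lie between -1.66 and -2.27, while Jund lies at 0.15.

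Differences in depth and in cycling accompanied these groups, and the other cells were therefore narrowed in 2 settings that were chosen after the data had been seen. The pluripotent-like cells were deeper (medians of 28768 and 26097 UMIs, against 15214 and 13651), and the summed level of the 8 mitosis markers was 12.8 and 12.7 in them against 5.43 and 4.66. Against only the 729 and 847 other cells in mitosis-like states, the log2 fold was -1.53 for Jun, -1.56 for Junb, -1.47 for Fos and -1.29 for Fosl2. Against only the 240 and 315 other cells that were at least as deep as the pluripotent-like median of their library, it was -1.68 for Jun and -1.67 for Fosl2, but -1.39 for Junb and -0.84 for Fos. The same 4 members passed the test in both settings (limma, adjusted p between 1.78e-07 and 3.76e-05 against the deep cells), where 72.3% and 70.7% of all genes passed. The fall of Fos and Junb was thus smaller against the deep cells than against all other cells. The deepest of the 9 states (2, 4 and 5) were also the lowest or among the lowest in Junb and Fos, so depth and state cannot be told apart here. State 0 was not among the deepest (medians of 14232 and 13065 UMIs). It was low as well, with Junb at 1.09 and 1.23 and Fos at 0.754 and 1.57. The 11 fibroblast markers summed to 2.14 and 1.68 in the pluripotent-like cells, where none was at 0, against 34.2 and 21.1 in the others, and the 6 smooth muscle markers, with Myh11 at 0, to 1.43 and 1.11 against 26.7 and 16.5. Mitochondrial RNA made up 3.25% and 3.40% of the pluripotent-like UMIs and 4.03% and 4.01% of the others. The part of the marker, depth and mitochondrial differences in the members' values was not tested.

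Other genes of the pathway came from lists that were chosen by function, and their counts stand against all genes tested, of which 77.3% were called, 39.3% lower and 38% higher. Of 20 other immediate early genes 15 were tested, of which 13 were lower and 1 higher in the pluripotent-like cells, with a median log2 fold of -1.05. Cyr61, a matricellular protein induced by serum, had 0.0883 and 0.137 against 0.850 and 1.01 (log2 fold -2.28), and Egr1, the zinc finger factor induced together with Fos, had 0.230 and 0.247 against 1.26 and 1.56 (log2 fold -2.15). Klf2 was the 1 that was higher, with 3.14 and 3.84 against 0.209 and 0.224 (log2 fold 3.50), and it is also known as a factor of naive pluripotency. Among 17 genes known as targets of AP-1, 11 were tested, 9 were lower and 1 was higher, with a median of -1.60. The intermediate filament Vim (log2 fold -3.47), the hyaluronan receptor Cd44 (-2.90) and the metalloproteinase inhibitor Timp1 (-2.09) fell furthest, and they are also genes of mesenchymal cells.

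The kinases upstream did not follow one direction. Of 17 genes of the MAP kinase pathway 12 were tested, with 4 lower, 2 higher and 6 that did not pass, and the median of -0.03 was close to that of all genes. The kinase Rps6ka1 was higher (0.533 and 0.583 against 0.0541 and 0.0759, log2 fold 2.00) and so was Map2k1, which encodes MEK1 (log2 fold 1.00), while the ternary complex factor Elk3 was lower (-1.24). Of 10 feedback genes of the pathway 2 could be tested, the phosphatases Dusp6 and Dusp1, and both were lower, Dusp6 by 0.69 and Dusp1 by 0.59 on the log2 scale. Of 24 other bZIP factors 13 were tested, 8 lower and 2 higher. Maf (0.0224 and 0.0189 against 0.391 and 0.484, log2 fold -2.15) and Cebpb (-1.54), an inflammatory C/EBP factor, fell furthest, and Atf4, the factor of the integrated stress response, was higher (2.13 and 2.04 against 0.760 and 0.722, log2 fold 1.38). A list of heat shock genes, chaperones that cell stress induces, was set beside them. Of 8 tested 7 were higher in the pluripotent-like cells, led by Hsp90aa1 (log2 fold 2.87), Hspb1 (2.71) and Dnaja1 (1.15), and 1 did not pass. All genes named in these lists passed the test (limma, adjusted p of at most 0.000828, which was that of Dusp1).

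The second comparison asked whether the members varied among the 9 non-pluripotent states beyond the spread between libraries that remained after the library term. Jun, Jund, Fosb, Fosl1 and Fosl2 had their highest mean level in the fibroblast-like state 8, Junb in state 9 and Fos in state 1. Of the 9 members 6 passed the filter and all 6 passed the F test over states, at a background where 88.0% of 7151 genes did, and 86.2% of those that had no part in the clustering. The range of a member between its highest and lowest state was 1.96 for Jun, 1.65 for Junb, 1.63 for Jund, 1.66 for Fos, 1.72 for Fosl2 and 1.11 for Fosb on the log2 scale, against a median of 0.73 over all genes tested. The range of Jun was reached by 8.85% of genes, and that of Fosb by 26.0%.

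**Figure D2:**
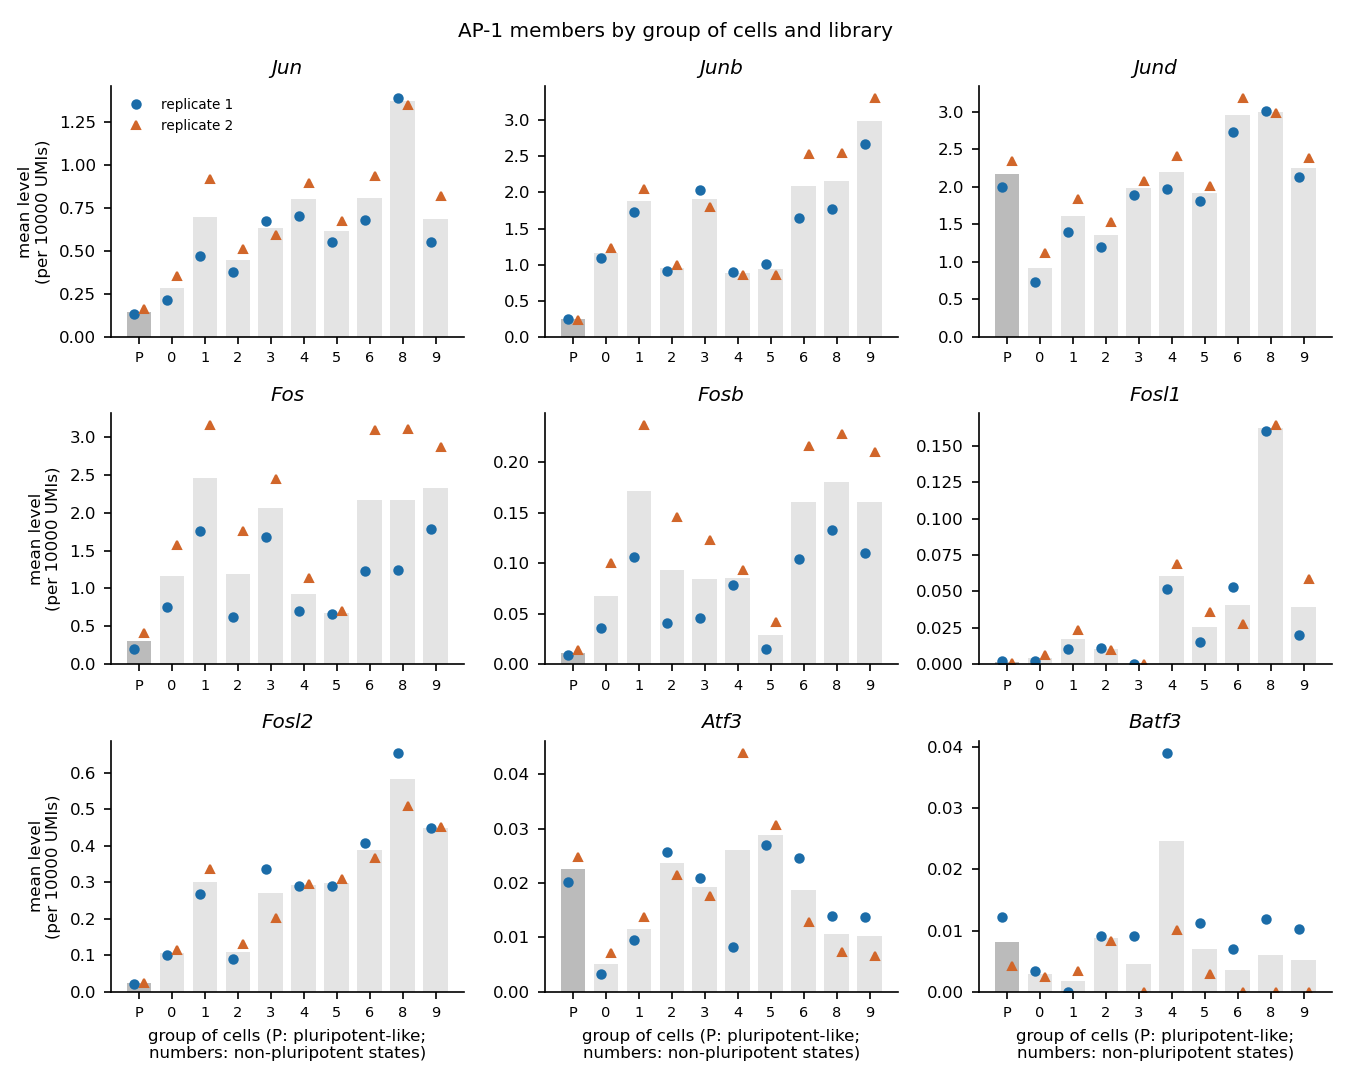
Mean level (per 10000 UMIs) of the 9 AP-1 members in pluripotent-like cells (P) and in the 9 non-pluripotent states with at least 30 cells in both libraries, with bars for the mean of the libraries and points for replicates 1 and 2. Jun, Jund, Fosl1 and Fosl2 peak in state 8, the points of Fos and Fosb for replicate 2 lie above those for replicate 1 in every state, and Atf3 and Batf3 stay below 0.05.

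Jun was highest in state 8, with 1.39 and 1.35 in replicates 1 and 2. The next states, 6 (0.681 and 0.936), 4 (0.702 and 0.897), 1 (0.472 and 0.917), 9 (0.553 and 0.819), 3 (0.674 and 0.594) and 5 (0.554 and 0.671), overlapped one with the next. States 2 (0.379 and 0.512) and 0 (0.213 and 0.355) lay below them in both libraries. State 8 therefore stood alone at the top and states 2 and 0 at the bottom. Of the 6 in between, states 6 and 4 were above states 3 and 5 in both libraries. In replicate 1 states 6 and 3 were close, at 0.681 and 0.674. The F test over all 9 states passed (limma, adjusted p = 4.04e-06). Here and below it covers all states at once and does not test the order of single states.

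Jund shared its ends with Jun. It was 3.01 and 2.99 in state 8 and 2.73 and 3.19 in state 6, which overlapped, and 0.728 and 1.11 in state 0 (limma F test, adjusted p = 5.31e-08). The pluripotent-like levels of 1.99 and 2.34 lay inside this range. Fosl2 had 0.656 and 0.510 in state 8, 0.448 and 0.452 in state 9 and 0.409 and 0.368 in state 6, each apart from the next, and was lowest in states 2 (0.0892 and 0.131) and 0 (0.0995 and 0.113), which overlapped (limma F test, adjusted p = 5.58e-07). Fosl1, which passed the F test only with the filter left out (limma, adjusted p = 0.000154, where 53% of 17096 genes passed), had 0.160 and 0.164 in state 8 from 70 and 35 UMIs, apart from every other state. State 4 followed at 0.0520 and 0.0690, and in state 3 Fosl1 had no UMI among 517 and 270 cells, which allows levels of up to 0.00425 and 0.00847.

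Junb was ordered differently. It was highest in state 9, with 2.67 and 3.31, apart from all others. States 8 (1.78 and 2.54), 6 (1.65 and 2.53), 3 (2.03 and 1.79) and 1 (1.73 and 2.04) overlapped below it, and the mitosis-like states 2 (0.908 and 1.00) and 4 (0.893 and 0.863) were lowest together with state 5 (1.01 and 0.857), which overlapped both. The test gave an adjusted p of 5.64e-07 (limma F test). Fos ran from 1.75 and 3.15 in state 1 and 1.78 and 2.87 in state 9 to 0.661 and 0.698 in state 5 (limma F test, adjusted p = 2.14e-05). Over both libraries together only state 5 was apart from its neighbour in the order. Within each library, however, states 1, 9, 8, 6 and 3 (1.24 to 1.78 in replicate 1, 2.44 to 3.15 in replicate 2) were above states 2, 0, 4 and 5 (0.624 to 0.754 and 0.698 to 1.76), and in replicate 1 state 2 was the lowest. Fosb ranged from 0.133 and 0.228 in state 8 to 0.0156 and 0.0416 in state 5 (limma F test over all states, adjusted p = 1.05e-05). Neighbours in its order overlapped over both libraries, although states 8, 1, 6 and 9 were above the other 5 within each library. Without the term for the library its call was lost (limma F test, adjusted p = 0.0525).

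Atf3 and Batf3 were sparse in every state. The mean level of Atf3 ran from 0.00516 in state 0 to 0.0288 in state 5, and that of Batf3 from 0.00170 in state 1 to 0.0246 in state 4. In state 4 Batf3 had 28 UMIs in replicate 1 and 11 in replicate 2, its largest counts in any state of either library. For both genes most neighbouring states overlapped.

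Fibroblast markers differed among the states as well, and so did cycling. The 11 fibroblast markers summed to 110 and 80.3 in state 8 and 80.9 and 65.5 in state 6, against 4.41 and 3.23 in state 0 and 4.99 and 4.61 in state 2, where Jun, Jund and Fosl2 were lowest. State 5 was also low in fibroblast markers (8.02 and 7.73). Its levels of Jun, Jund and Fosl2 were nevertheless above those of states 0 and 2 in both libraries. The 8 mitosis markers summed to 18.7 and 18.1 in state 2 and 18.4 and 16.1 in state 4, against 1.39 and 1.22 in state 5. The fibroblast markers summed to 35.7 in state 4 of replicate 1 against 4.99 in state 2. Jun, Jund, Fosl1 and Fosl2 were also higher in state 4 than in state 2 in both libraries, and Junb was not. Leaving out states 2 and 4, all 6 tested members still passed the F test, at a background of 76.1%. The part of these marker lists in the levels was not tested. The pluripotent-like cells were below the lowest of the 9 states in both libraries in Jun, Junb, Fos, Fosb and Fosl2, as were 28.1% of the genes tested in the first comparison.

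Over the 9 states, with each state's mean over both libraries as a point, most members fell into 2 sets of similar order. Pearson's r was 0.92 between Jun and Jund, 0.91 between Jun and Fosl2 and 0.90 between Jund and Fosl2. It was also 0.92 between Junb and Fos, 0.88 between Fos and Fosb and 0.78 between Junb and Fosb. Between the sets it was lower, from 0.38 (Jund and Fos) to 0.66 (Junb and Fosl2). In each library alone the values within the first set were between 0.85 and 0.92, and those between Junb and Fos 0.95 and 0.89. Fosb did not join the second set in replicate 1, where its r was 0.61 with Junb and 0.64 with Fos, against 0.67 with Fosl2. In replicate 2 these were 0.84, 0.95 and 0.47. These 9 points share the libraries, the clustering and the cycling states, so the values describe this set of states and carry no test.

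Across single non-pluripotent cells at their full depth, 2 of these pairs were the most alike, Junb with Fos and Jun with Jund. The others did not keep to the sets. Over 2963 cells of replicate 1 and 3523 of replicate 2, r of the log values was 0.34 and 0.38 between Junb and Fos and 0.32 and 0.36 between Jun and Jund. Next came Jun and Fos, which belong to different sets over the states, at 0.19 and 0.24, above Jund and Fosl2 (0.18 and 0.19) and Jun and Fosl2 (0.13 and 0.17). The other 7 pairs of the 5 members with enough UMIs had means of 0.18 or less, with Fos and Fosl2 the lowest at 0.06 in both libraries, and the median over the 10 pairs was 0.159. Cells share their library and depth and the counts are sparse, so these values carry no test and the weak ones are not read. All 10 pairs were positive in both libraries. The median was 0.115 after the mean of each state in each library was taken away, and Junb and Fos stayed at 0.32 and Jun and Jund at 0.29. Thinning each cell to 3000 UMIs lowered every pair, to a median of 0.0687, with Junb and Fos at 0.19 and Jun and Jund at 0.13. In thinned cells Jun and Jund (0.132 and 0.127 in replicates 1 and 2) no longer stood above Jun and Fos (0.133 and 0.115) in both libraries. Among pluripotent-like cells, where most members were near 0, the median was 0.0759.

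**Figure D3:**
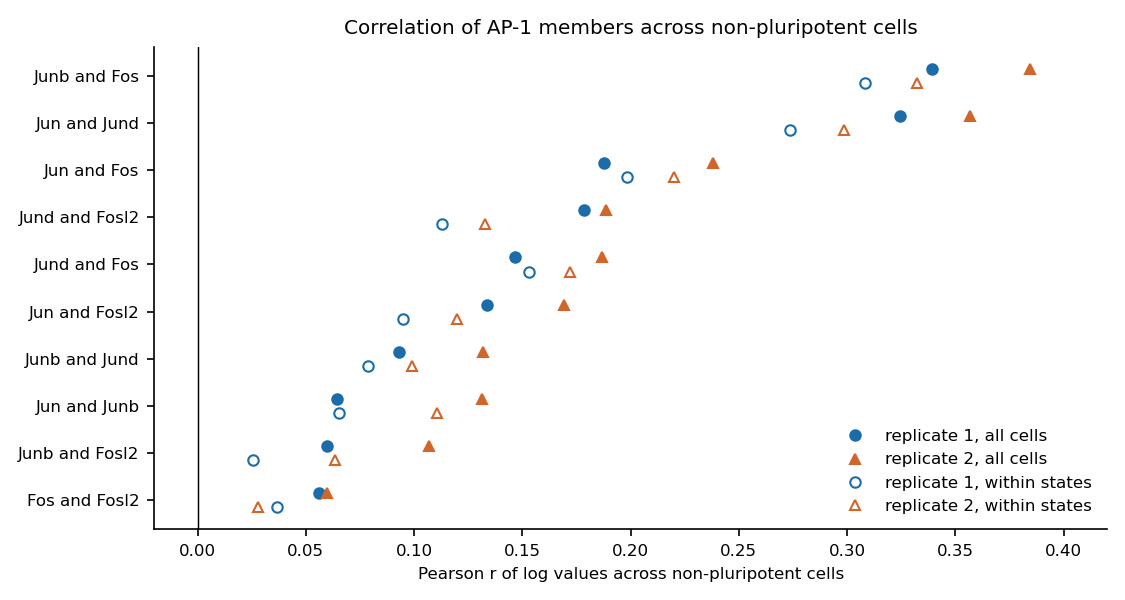
Pearson r of the log values of 10 pairs of AP-1 members across non-pluripotent cells, for replicates 1 and 2 (filled symbols) and after the mean of each state in each library was taken away (open symbols). Junb and Fos and Jun and Jund lie highest in both libraries, with means of 0.36 and 0.34, and Fos and Fosl2 lowest.

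Each member was also set against 7006 other genes across the same cells. The single gene most like it was an AP-1 member or an immediate early gene for all but Fosl2. The genes most like Jun were Jund (mean r of the libraries 0.34), Dusp1 (0.26), Klf6 (0.24), Fos (0.21) and Timp2 (0.18). For Junb they were Fos (0.36), Egr1 (0.36), Ier2 (0.30), Ypel3 (0.26) and Bgn (0.24), and for Fos they were Egr1 (0.40), Junb (0.36), Cyr61 (0.25), Ier2 (0.24) and Apod (0.24). Egr1 and Ier2 are immediate early genes too. Jund had Jun (0.34) first, then Tnfrsf12a (0.29), Sparc (0.29), Fn1 (0.28) and Dusp1 (0.27), and the list of Fosl2 held Fn1 (0.23), Col1a2 (0.20), Sparc (0.20), Adm (0.20) and Ccdc80 (0.20). Fn1, Col1a2 and Sparc encode extracellular matrix proteins of mesenchymal cells. Junb ranked 143 among the genes like Jun. Among the genes like Jund, Fos ranked 137 and Junb 437. Fos and Junb were also correlated with the depth of the cell, with r between the log of its UMIs and Fos of -0.19 and -0.23 and with Junb of -0.22 and -0.24, while Jun, Jund and Fosl2 lay between -0.04 and 0.02. With depth held fixed, the median over the pairs was 0.163, while the mean r of Junb and Fos went from 0.36 to 0.33.

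Among the members the libraries themselves differed most in Fos and Fosb. Fos was higher in replicate 2 in 9 of 9 states, by a median of 0.81 on the log2 scale (1.75-fold) and from 0.07 in state 5 to 1.36 in state 2. Fosb was higher in 9 of 9 states as well, by a median of 0.56. Over all 7151 genes 2.62% were higher in replicate 2 in every state, 0.0699% had a median at least as high as that of Fos and 0.196% as high as that of Fosb, while the median over genes was -0.04. The partners changed less, with medians of 0.35 for Jun (7 of 9 states), 0.21 for Jund (8 of 9), 0.16 for Junb (6 of 9) and 0.02 for Fosl2 (6 of 9). In that order, 0.853%, 2.32%, 4.28% and 26.2% of all genes had a median at least as high. Of the genes induced together with Fos, Egr1 had a median of 0.22 (2.21% of genes as high) and Ier2 of 0.19 (3.05%), each higher in 8 of 9 states. Cyr61 (0.19, 3.20%) and the feedback gene Dusp1 (0.35, 0.839%) were also higher in 8 of 9 states. The immediate early genes Zfp36 (0.07, 14.4%) and Klf6 (-0.12, 76.1%) were closer to the bulk of genes. The pluripotent-like cells showed the same for Fos, with 0.74 on the log2 scale. With 1 library on each side there is no replicate of this difference, so it has no test, and library, culture and STEMCCA system cannot be told apart.

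**Figure D4:**
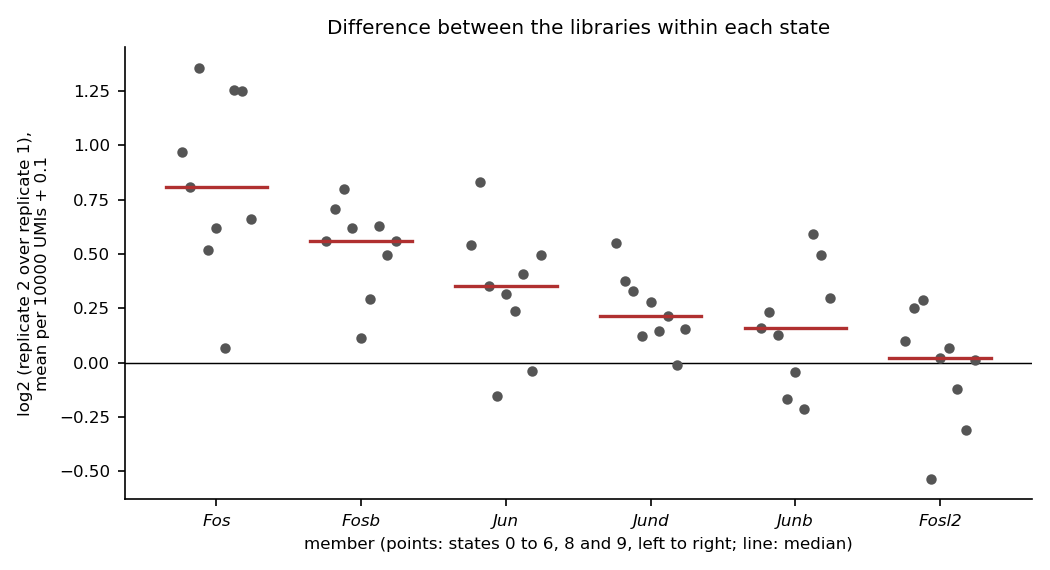
Log2 ratio of replicate 2 over replicate 1 (level + 0.1) for 6 AP-1 members, with 1 point for each of 9 non-pluripotent states and a line at the median. All points of Fos and Fosb lie above 0, with medians of 0.81 and 0.56, while those of Junb and Fosl2 lie on both sides.

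Genes of the table that lie on the opposite strand overlap 4 of the members. The sources used here do not state whether counting used the strand, so reads of a pair may be shared. Prdx2 overlaps Junb, Junos overlaps Jun, Gm11175 overlaps Jund and Ccdc85b overlaps Fosl1. Prdx2 was abundant and differed little, with 4.07 and 2.88 in the pluripotent-like cells against 4.32 and 4.17 in the others (log2 fold -0.30, limma, adjusted p = 0.0347). Junos and Gm11175 had levels of at most 0.0136. Ccdc85b had 0.0284 and 0.0443 in the pluripotent-like cells against 0.0738 and 0.0952 in the others, above Fosl1 in both groups.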

How the data were processed

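Cells of 2 libraries at day 16 were profiled with Chromium V2 3' chemistry. Per the submitters' processing notes the authors used Cell Ranger (version 2.1.1), mm10 and Seurat. The values the authors deposited are on a natural log scale, with 1 added to a gene's UMIs per 10000 in that cell before the log was taken. Back on a linear scale all cells had a sum of 10000, and 100% of values were whole multiples (within 0.01) of what 1 UMI is worth in their cell, which gave back the UMIs. Libraries were told apart by the barcode suffix in the labels, with 0 columns unassigned. Doublets were not called here, and the sources used here do not state whether the authors removed any.

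Clustering left out 694 genes (588 X-linked or Y-linked genes, the 4 reprogramming factors, the members and all listed genes) and used 2000 variable genes, 30 principal components (scanpy version 1.11.5), 15 neighbours and Leiden clustering (leidenalg version 0.10.2) at resolution 1. A cluster was named if at least 3 and at least 50% of the markers of a class were 2-fold above the other cells. Of 87 markers in 11 classes 3 were absent from the table. Autosomal markers could take part in the clustering.

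Group means per library were compared by limma (version 3.58.1) in R (version 4.3.3) as log2(mean + 0.1), with a term for the library. A gene needed a mean of 0.1 over the profiles, and p-values were adjusted over all genes tested (Benjamini-Hochberg, threshold 0.05). The first comparison used 4 profiles and the F test over 9 states used 18. A planned contrast of epithelial-marked with fibroblast-marked states was not run, since the epithelial-like state had 4 cells in replicate 2. Scripts were tested on simulated data first. Ratios of UMIs have exact (Clopper-Pearson) 95% intervals, and a count of 0 was read as up to 3 counts.

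The members, lists and markers were chosen with earlier results of these data known. The text names all members, in each other list the 3 called genes with the largest change, and for each tested member the 5 genes with the highest mean r. Promoters came from RefSeq (GRCm38.p6) and gene positions from GENCODE M21.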

Additional observations from a re-analysis of the deposited data

How the results depend on the processing

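The 4 members lower in pluripotent-like cells were called under 11 of the 12 other settings, 2 of them added after the data had been seen. These include both other clustering resolutions, cells classed by their own markers and no replicate block (4 called). With a mean of at least 0.5 only Junb and Fos of them entered the test (2 called), and the calls over all genes went from 5415 to 1724 and those over the states from 6290 to 2130, as fewer genes were tested. Over the states 6 members were called, and 5 with no replicate block, where Fosb was lost. Both groups of cells come from each library, so the library pairs them and its term is the block. Without either replicate there is no test, the 5 tested members kept the sign of their log2 fold, and the median correlation of the members was then 0.140 to 0.178. It was 0.0687 in thinned cells and 0.115 within states. With no filter on low values 6 members were called, and 7 over the states. The folds of all 4 members depend on the pseudocount: with 1 and 0.01 they were -0.58 and -2.20 for Jun, -1.04 and -2.62 for Junb, -0.997 and -2.39 for Fos and -0.33 and -3.20 for Fosl2. The planned contrast of epithelial-marked with fibroblast-marked states gave no value. With 2 libraries the spread of a gene rests on few values, and limma shared it among genes. Low counts limit Fosl1, Atf3 and Batf3.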

Other observations

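Some small clusters outside the comparisons held high AP-1 levels. In state 11, led by Trf, Saa3 and Gm12840, the 42 cells of replicate 2 had a level of 7.79 for Fos (363 UMIs), 5.94 for Jund, 3.68 for Jun, 3.27 for Junb and 0.754 for Fosb, each above every one of the 9 larger states of that library except Junb. Replicate 1 had 1 such cell, so the cluster may be particular to the library of replicate 2. The macrophage-like state 13, with 4 and 9 cells, had Atf3 at 0.710 and 1.07, from 3 and 11 UMIs, and Jun at 3.22 and 3.40. Atf3 was below 0.05 in each of the 9 larger states. In the epithelial-like state 10, the 69 cells of replicate 1 had 1.41 for Jun, close to the 1.39 of the fibroblast-like state 8, and 0.942 for Fos. None of these values has a replicate check of 30 cells in both libraries.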
